A study of Mus musculus with 15 samples.

Results

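Gene expression in mice fed cuprizone and given vehicle was compared with that of untreated control mice, 5 mice a side and 10 of the 15 mice of the series, chosen by their group labels alone. RNA was sequenced from mixed corpus callosum and neocortex of wild-type mice. The control mice had standard chow and no treatment, and no vehicle is named for them. The vehicle mice were fed 0.25% (w/w) cuprizone for 3 weeks and received vehicle, so what the vehicle did and what cuprizone did cannot be told apart. Another group of 5 mice had the same diet with siponimod at 3.125 mg/kg and is used only for levels side by side. Of 21288 genes with values, 17788 passed a filter of more than 0.5 TPM in at least 5 of the 10 mice and were tested. TPM, the unit of the deposited levels, is a transcript's abundance per length on a fixed total per library, so it keeps no sequencing depth: how deep a library was read is unknown, and precision rests on the spread between mice. The labels name each mouse separately.

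Cuprizone is a copper chelator that, given in chow, kills mature oligodendrocytes of the corpus callosum and cortex while most neurons survive. Myelin is lost, microglia and astrocytes become reactive, and progenitors later replace the lost cells. Oligodendrocyte loss in this model is known to go with the integrated stress response, in which kinases that phosphorylate the initiation factor eIF2 alpha slow protein synthesis and let the transcription factors ATF4, ATF5 and CHOP (gene Ddit3) be made. These factors raise genes of amino acid supply, and, under long stress, genes linked to growth arrest and cell death.

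Vehicle mouse 1 was unlike the remaining 9 libraries. Bc1, a short neuronal RNA that codes for no protein, took 35.3% of its TPM, against 6.02% to 10.8% elsewhere, and its median gene was at 5.50 TPM, against 11.7 to 12.7 TPM. All values below are therefore scaled TPM: each library was multiplied so that its median over the tested genes was the same, by 0.89 to 0.97 for 9 libraries and by 2.07 for vehicle mouse 1. After scaling, the tenth of genes with the shortest transcripts still lay 0.60 log2 above the control mean in that mouse and the tenth with the longest at -0.40 log2, while in the other 9 mice both lay between -0.04 and 0.07 log2. Short transcripts thus read high and long ones low in vehicle mouse 1, and the comparison was made with and without it. Bc1 itself was 2.06-fold higher in vehicle mice with that mouse and 1.36-fold without it, and passed in neither fit (adjusted p = 0.822 and 0.313 in limma). Its mean share of unscaled TPM was 14.98% in vehicle and 7.42% in control mice (exact permutation p = 0.0159). Without vehicle mouse 1 the vehicle mean was still higher, at 9.92% (exact permutation p = 0.0317). As a check of the tissue, the neocortical neuron genes Slc17a7 and Camk2a were at 616 to 743 and 819 to 1015 scaled TPM in control mice. Markers of choroid plexus and ependyma summed to 56.6 to 2156 scaled TPM in control and 47.7 to 432.4 in vehicle mice.

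**Figure D1:**
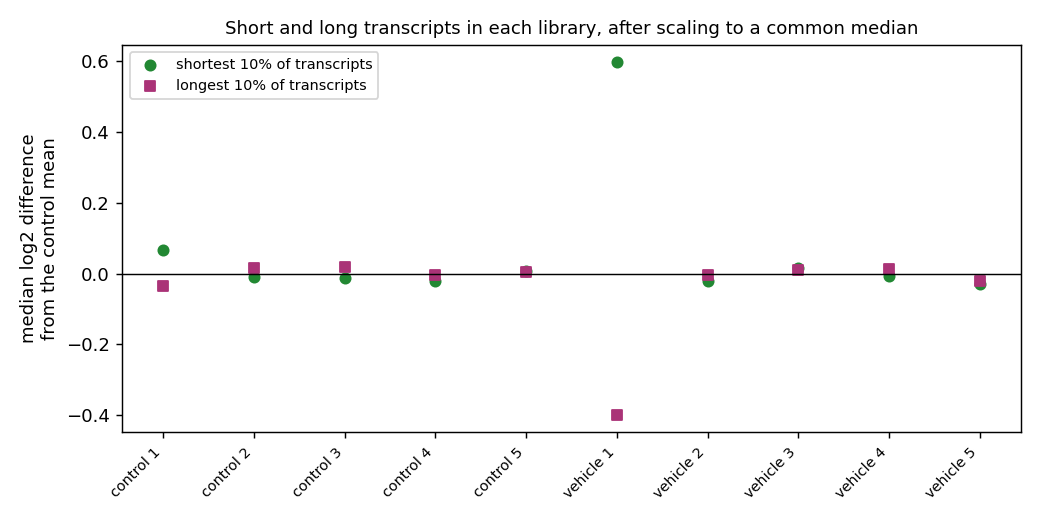
Median log2 difference from the control mean, after scaling to a common median, for the tenth of tested genes with the shortest transcripts (green circles) and the tenth with the longest (purple squares), 1 pair of points per mouse. Vehicle mouse 1 lies at 0.60 and -0.40, while all other mice lie near 0.

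With all 10 mice 234 of 17788 tested genes passed at an adjusted p of 0.05 in limma (percent called 1.32), 121 higher (0.68) and 113 lower (0.635) in vehicle mice. Without vehicle mouse 1 the same test called 551 genes (percent called 3.1), 286 higher (1.61) and 265 lower (1.49). All 234 genes were among the 551, and 317 passed only without that mouse. At an unadjusted p under 0.05 in limma lay 1471 of the 17788 genes with all mice and 2510 without that mouse. Called and unadjusted counts of the lists below are to be read against these totals. Of the 234 genes, 195 are outside the classic lists of myelin, progenitors, microglia, complement and reactive astrocytes, and 137 changed by more than 1 log2. The 5 vehicle mice lay wholly above or below the 5 control mice for 806 genes (percent called 4.53), and for 1325 (7.45) without vehicle mouse 1. A gene below the filter in every mouse of 1 group was tested only if all 5 of the other group passed it. Its separation was then largely fixed beforehand. Without scaling, the median gene moved by -0.21 log2 and the share of higher genes among the calls fell from 51.7% to 36%, so directions below are relative to the median gene. In bulk tissue, fewer cells of a type and less RNA per cell cannot be told apart, and this holds for every fall and rise reported here.

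Outside the classic lists, genes of the integrated stress response rose in part. Of its 23 tested regulators and targets 8 rose and 0 fell with all 10 mice, and 10 rose without vehicle mouse 1 (list median 0.45 and 0.38 log2, against 0.01 and -0.01 over all tested genes). Those that rose were the transcription factors Atf5, Atf3, Ddit3 and Cebpg, the pseudokinase Trib3, the chromatin regulator Nupr1, the secreted Gdf15 and the translation inhibitor Eif4ebp1. Sesn2, a sestrin that restrains mTORC1, and Nfe2l1, a factor that raises proteasome genes, were added without that mouse.

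Atf5, a factor induced with ATF4 (ENSMUSG00000038539, GRCm38 chromosome 7, 44812256 to 44816658), had 21.98, 23.9, 17.7, 17.8 and 15.96 scaled TPM in control mice 1 to 5 and 127, 109.6, 97.4, 103 and 119 in vehicle mice 1 to 5. The groups were far apart and each was narrow. The rise was 5.63-fold (log2 fold change 2.49, 95% interval 2.22 to 2.76, adjusted p = 1.02e-05 in limma), and 5.45-fold without vehicle mouse 1 (adjusted p = 1.77e-06).

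Trib3, which binds ATF4 and AKT and is induced by CHOP, had 0.698, 0.911, 0.551, 0.579 and 0.557 scaled TPM in control and 7.36, 5.11, 5.88, 5.94 and 7.89 in vehicle mice, and rose by 2.57 log2 (adjusted p = 1.81e-05 in limma, 2.53 without vehicle mouse 1). Nupr1, a small stress protein of the nucleus, had 16.4, 13.97, 12.4, 14.1 and 12.02 in control and 127, 61.5, 65.7, 55.5 and 68.04 in vehicle mice. Vehicle mouse 1 was far above the others, but the 4 remaining vehicle mice also lay well above all controls, and the change was 2.35 log2 with and 2.15 without it (adjusted p = 3.30e-04 and 1.77e-06 in limma). Gdf15, a hormone of stressed cells that acts on the hindbrain, was at 0, 0.0588, 0.155, 0.192 and 0 in control and 4.41, 2.97, 2.24, 2.79 and 3.08 in vehicle mice. It was thus at or near 0 in every control and at 2.24 or more in every vehicle mouse (log2 fold change 2.62, adjusted p = 5.58e-05 in limma, 2.50 log2 and 1.76e-05 without vehicle mouse 1). With every control below the filter of 0.5 TPM, Gdf15 was tested only because all 5 vehicle mice passed it. The lack of overlap was therefore fixed by the filter and is no separate support.

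Atf3, a factor also switched on in injured neurons, had 0.428, 0.932, 0.820, 0.931 and 0.511 scaled TPM in control and 4.90, 4.52, 4.42, 3.62 and 11.2 in vehicle mice, with vehicle mouse 5 far above the rest (log2 fold change 2.26, adjusted p = 0.00172 in limma, 2.29 log2 and 0.00111 without vehicle mouse 1). Eif4ebp1, which holds back cap-dependent translation, had 4.37, 5.34, 4.10, 4.54 and 3.47 in control and 27.5, 9.78, 12.3, 10.4 and 14.1 in vehicle mice. Its highest value was in vehicle mouse 1, and the change was 1.56 log2 with and 1.32 without that mouse (adjusted p = 0.0107 and 3.66e-04 in limma). Cebpg, a partner of ATF4, rose by less but with little spread, from 18.1 ± 1.38 to 27.9 ± 2.19 scaled TPM (mean ± SD, n = 5 each), 0.61 log2 (adjusted p = 0.00392 in limma, 0.58 log2 and 9.70e-04 without vehicle mouse 1). Ddit3, the CHOP gene, rose from 44.9 ± 3.46 to 79.05 ± 22.96 (1.71-fold, adjusted p = 0.0445 in limma). Its call was lost without any 1 of control mice 1 to 5 or vehicle mice 2, 3 and 5 (adjusted p 0.0549 to 0.131), and without vehicle mouse 1 it was 1.53-fold (adjusted p = 0.00144). Each of the other 7 called genes of the list stayed called in all 10 fits that left out 1 mouse.

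Other members of the response passed in neither fit. Atf4 itself, which is regulated mainly at translation, had 114 ± 16.1 scaled TPM in control and 115 ± 16.2 in vehicle mice 2 to 5 (SD, n = 5 and 4), with a log2 fold change of 0.02 and an adjusted p of 0.960 in limma without vehicle mouse 1. Asns, the asparagine synthetase that is a standard ATF4 target, stood at 0.02 log2 (adjusted p = 0.956), Ddit4 at 0.02 and Chac1, which degrades glutathione, at 0.40 (adjusted p = 0.574) in the same limma fit. The eIF2 alpha kinases in the list, Eif2ak1, Eif2ak3 and Eif2ak4, stood at -0.06, -0.06 and 0.03 log2 without vehicle mouse 1 and passed in neither fit.

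**Figure D2:**
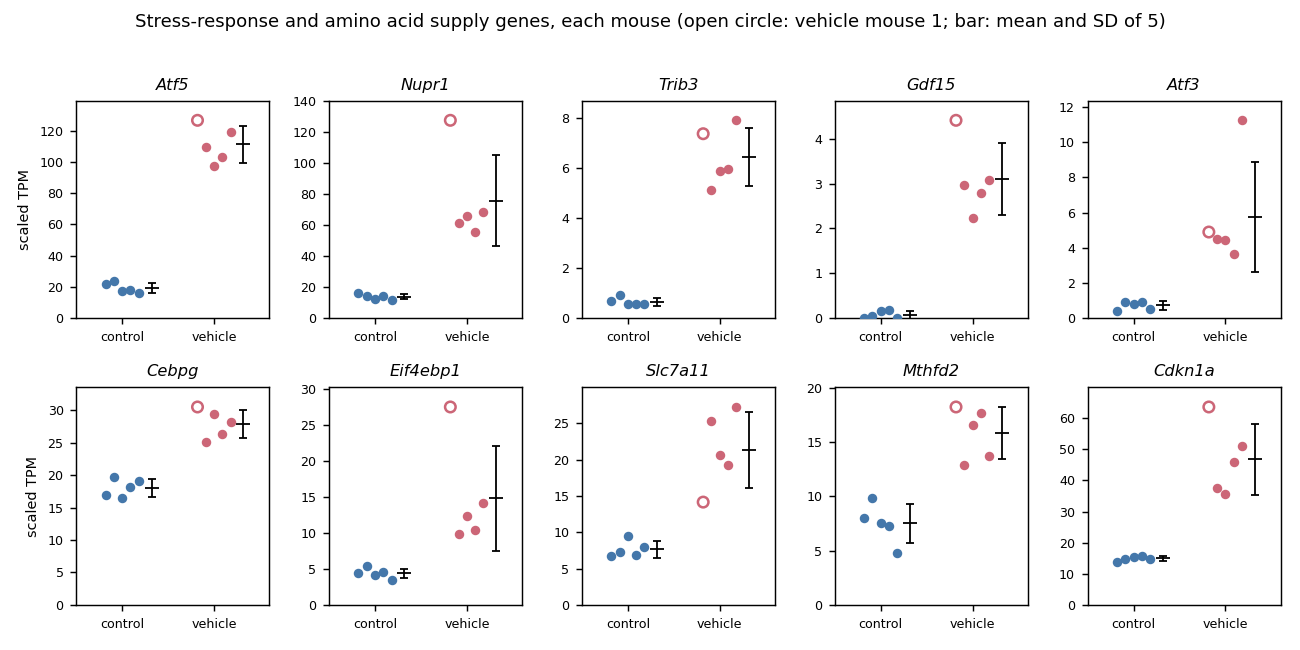
Scaled TPM of stress-response, amino acid supply and growth-arrest genes in each of 5 control (blue) and 5 vehicle mice (red, open circle for vehicle mouse 1), with mean and SD of the 5 as a bar. In every panel all vehicle mice lie above all control mice. Atf5, Nupr1, Trib3, Atf3, Eif4ebp1 and Cdkn1a met a naming rule that required no overlap, and the filter fixed it for Gdf15. Vehicle mouse 1 is the highest mouse in panels that include Atf5, Nupr1, Gdf15, Eif4ebp1, Mthfd2 and Cdkn1a. It stands far above the others for Nupr1 and Eif4ebp1, and is the lowest vehicle mouse for Slc7a11.

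ATF4 and its partners bind a composite of a C/EBP and an ATF site, and the promoters of the stress genes were read for its core, TGATGNAA or its reverse TTNCATCA, which hold no overlap with each other. Promoter windows (250 bases before to 50 after the start of transcription, 5′ to 3′ on the gene's strand) are RefSeq's on GRCm38.p6. The 4 shown are those of the called stress and amino acid genes that hold a match, with each match in capitals and the rest in lower case.
Nupr1, chr7:126625421-126625720, minus strand: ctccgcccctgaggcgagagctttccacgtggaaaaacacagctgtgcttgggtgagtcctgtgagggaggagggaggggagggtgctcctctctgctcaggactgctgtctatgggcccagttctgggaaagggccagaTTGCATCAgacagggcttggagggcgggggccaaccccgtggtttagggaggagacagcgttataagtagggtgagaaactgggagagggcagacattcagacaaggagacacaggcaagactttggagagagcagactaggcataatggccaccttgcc
Trib3, chr2:152344011-152344310, minus strand: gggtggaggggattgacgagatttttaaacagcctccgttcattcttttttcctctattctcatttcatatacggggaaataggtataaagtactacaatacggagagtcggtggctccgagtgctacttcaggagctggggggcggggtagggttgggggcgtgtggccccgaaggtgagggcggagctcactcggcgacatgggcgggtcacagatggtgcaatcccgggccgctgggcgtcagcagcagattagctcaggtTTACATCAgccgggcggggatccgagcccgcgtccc
Atf3, chr1:191183284-191183583, minus strand: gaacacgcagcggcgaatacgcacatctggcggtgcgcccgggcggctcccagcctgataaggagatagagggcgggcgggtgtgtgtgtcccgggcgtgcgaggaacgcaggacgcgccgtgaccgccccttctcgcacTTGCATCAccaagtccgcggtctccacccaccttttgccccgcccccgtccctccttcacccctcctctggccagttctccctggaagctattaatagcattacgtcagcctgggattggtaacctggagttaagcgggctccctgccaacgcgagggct
Slc7a11, chr3:50443564-50443863, minus strand: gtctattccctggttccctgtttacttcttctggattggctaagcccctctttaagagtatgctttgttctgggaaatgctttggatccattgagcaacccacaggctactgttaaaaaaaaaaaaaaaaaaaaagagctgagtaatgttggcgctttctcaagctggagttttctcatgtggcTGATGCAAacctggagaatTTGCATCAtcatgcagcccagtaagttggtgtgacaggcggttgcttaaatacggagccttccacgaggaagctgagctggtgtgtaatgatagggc

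The first base of the match lay at -110 from the start in Nupr1 and Atf3, at 14 in Trib3, and at -66 and -47 in Slc7a11, whose promoter holds the motif in both directions. The motif was in 3.97% of 32851 promoter windows of the mouse genome table and in 2.77% of 12309 tested genes with a window. It was in 6 of 22 tested genes of the stress list with a window and in 3 of 7 of those called in both fits. The windows of Atf5, Gdf15, Cebpg, Ddit3, Mthfd2 and Slc3a2 hold no match. Eif4ebp1, Aldh1l2 and Hmox1, also called in both fits, had no window and were not searched. The antioxidant response element, TGACNNNGC or its reverse GCNNNGTCA, was searched in the same windows and was in 16.6% of the 12309 tested genes. It was in 5 of 22 tested and 0 of 7 called genes of the stress list. The amino acid list had it in 6 of 21 tested and 0 of 3 called genes, the Nrf2 list in 6 of 14 and 0 of 1. These are counts of letters in fixed windows and say nothing of binding.

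Genes of serine, one-carbon and amino acid supply also rose in part. Of 26 tested members 4 rose and 0 fell with all 10 mice, and 10 rose without vehicle mouse 1 (list median 0.33 log2 in both fits). The 4 were Slc7a11 and Slc3a2, the light and heavy chain of the cystine-glutamate exchanger, and the mitochondrial folate enzymes Mthfd2 and Aldh1l2. Without vehicle mouse 1 they were joined by Phgdh and Psph of serine synthesis, Pycr1 and Aldh18a1 of proline synthesis, and the transporters Slc7a5 and Slc1a4.

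Slc7a11 had 6.66, 7.21, 9.42, 6.88 and 7.96 scaled TPM in control and 14.1, 25.3, 20.6, 19.3 and 27.2 in vehicle mice. All vehicle mice lay above all controls, vehicle mouse 1 the least so, and the rise was 2.64-fold with it and 2.90-fold without (adjusted p = 0.00201 and 8.87e-05 in limma). Mthfd2 had 7.98, 9.87, 7.57, 7.30 and 4.81 in control and 18.2, 12.9, 16.6, 17.7 and 13.7 in vehicle mice, a 2.07-fold rise (adjusted p = 0.0137 in limma, 1.99-fold and 0.00827 without vehicle mouse 1). Slc3a2 rose from 103 ± 3.64 to 176 ± 39.02 scaled TPM, 1.68-fold (adjusted p = 0.0190 in limma, 1.55-fold and 7.12e-04 without vehicle mouse 1). Its call was lost without any 1 control mouse or without vehicle mouse 5 (adjusted p 0.0520 to 0.0719). Aldh1l2 rose by 0.58 log2 (adjusted p = 0.0351) and kept its call in limma only when vehicle mouse 1 was the mouse left out (adjusted p = 0.00627, otherwise 0.0539 to 0.106).

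Slc7a5, the large neutral amino acid transporter that pairs with Slc3a2, passed only without vehicle mouse 1. It had 34.8, 37.5, 33.4, 32.5 and 27.8 scaled TPM in control mice, 59.7, 61.6, 62.1 and 85.6 in vehicle mice 2 to 5, and 32.5 in vehicle mouse 1, which fell among the controls. The change was 0.79 log2 with that mouse (adjusted p = 0.130 in limma) and 1.00 without it (adjusted p = 6.59e-04). Of 20 cytosolic aminoacyl tRNA synthetases, which charge tRNAs and are often named as ATF4 targets, 1 rose in either fit, Eprs (0.54 log2, adjusted p = 0.0226 in limma, 0.46 log2 and 0.00117 without vehicle mouse 1), and the list median was 0.13 with all mice and 0.07 log2 without vehicle mouse 1. The Eprs call was lost without any 1 control mouse or without vehicle mouse 3 or 5 (adjusted p 0.0554 to 0.0815).

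Other stress programmes showed few or no calls. Over all tested genes 1.32% passed with all mice and 3.1% without vehicle mouse 1, so 0 calls in lists this short is near that share. Of 20 endoplasmic reticulum chaperones and folding enzymes 0 passed in either limma fit (0 with all mice and 2 without vehicle mouse 1 at an unadjusted p under 0.05), and the list median was 0.12 log2 with all mice and -0.02 without that mouse. Hspa5, the chief chaperone of that compartment, was at 154 to 165 scaled TPM in control mice, 150.0 to 159 in vehicle mice 2 to 5 and 267 in vehicle mouse 1. Of 16 genes of mitochondrial stress and proteostasis 0 passed in limma (0 and 1 unadjusted, median -0.01 log2 without vehicle mouse 1), and Lonp1, the mitochondrial protease, stood at 0.13 log2 (adjusted p = 0.557 in limma). Of 15 cytosolic heat shock genes 1, Cryab, a small chaperone that oligodendrocytes hold in quantity, fell without vehicle mouse 1 (-0.71 log2, adjusted p = 0.00105 in limma). With all mice its change was -0.45 log2 (adjusted p = 0.707).

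Copper handling was looked at because cuprizone binds copper. Of 22 tested genes of copper transport and metallothioneins 0 passed in either limma fit (2 and 6 at an unadjusted p under 0.05, median 0.17 log2 with all mice and 0.01 without vehicle mouse 1). Over all 17788 tested genes 1.32% and 3.1% passed in the 2 fits, and 1471 and 2510 had an unadjusted p under 0.05. Mt1 and Mt2, the metal-binding metallothioneins, were both highest in vehicle mouse 1. Mt1 was at 364 to 445 scaled TPM in control mice, 398 to 613 in vehicle mice 2 to 5 and 1237 in vehicle mouse 1. Of 20 genes of cytochrome c oxidase, the copper enzyme of the respiratory chain, and its assembly 0 passed in limma (0 and 2 unadjusted), and the median went from 0.26 log2 with all mice to -0.03 without vehicle mouse 1. Of 17 Nrf2 targets 2 rose in both fits, Hmox1 and Slc7a11. Nqo1, the standard antioxidant marker of that factor, passed in neither (0.11 log2, adjusted p = 0.759 in limma without vehicle mouse 1). Taldo1, of the pentose phosphate pathway, fell in that fit by 0.42 on the log2 scale (adjusted p = 0.00173) and stood at -0.17 with all mice (adjusted p = 0.830 in limma).

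Of the 51 lists, that of ribosomal proteins had the median that moved most when vehicle mouse 1 was left out. All 32 tested cytosolic ribosomal protein genes had a positive log2 fold change in both fits, with a median of 0.40 log2 with all mice and 0.09 without vehicle mouse 1, and 0 passed in limma in either (0 and 10 at an unadjusted p under 0.05). Rpl32 was at 402 to 481 scaled TPM in control mice, 457 to 468 in vehicle mice 2 to 5, and 1855 in vehicle mouse 1. Of 17 host genes of small nucleolar RNAs 0 passed in limma with all mice (4 unadjusted) and 3 rose without vehicle mouse 1, Gas5, Snhg1 and Snhg12, by 0.38, 0.64 and 0.42 log2 (adjusted p = 0.0104, 0.00302 and 0.0453 in limma).

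**Figure D3:**
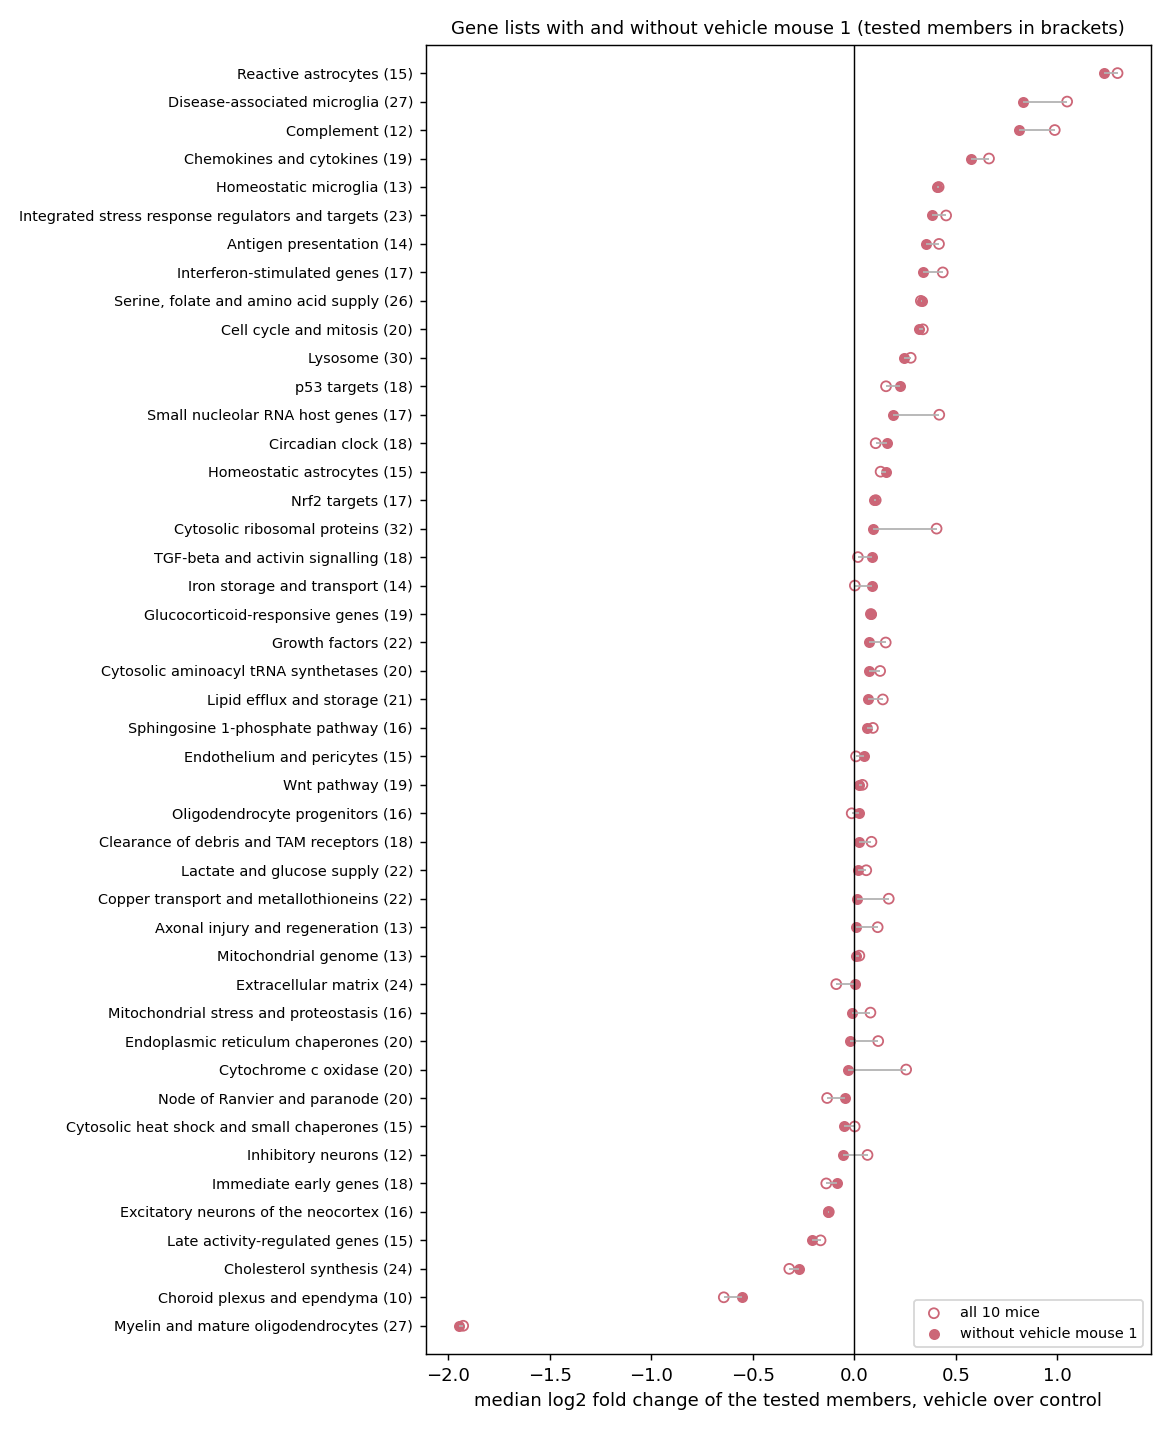
Median log2 fold change of the tested members of each gene list, vehicle over control mice, with all 10 mice (open circles) and without vehicle mouse 1 (filled circles). Myelin stays near -1.9 in both, stress-response and chemokine lists stay above 0, and ribosomal proteins move from 0.40 to 0.09.

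Genes of growth arrest and p53 rose in part. Cdkn1a, which encodes the cell cycle inhibitor p21, had 13.9, 14.7, 15.4, 15.7 and 14.8 scaled TPM in control and 63.6, 37.5, 35.7, 45.9 and 51.2 in vehicle mice, with no overlap and a 3.00-fold rise (adjusted p = 4.13e-04 in limma), or 2.77-fold without vehicle mouse 1. Of 18 tested p53 targets 2 rose with all mice, Cdkn1a and the exonuclease Aen, and 4 without vehicle mouse 1, when Mdm2 and Ccng1, feedback genes of p53, were added at 0.32 and 0.32 log2 (adjusted p = 0.0292 and 0.00998 in limma). The Aen call (0.49 log2, adjusted p = 0.0445, 0.41 log2 and 0.00826 without vehicle mouse 1) was lost when any mouse other than vehicle mouse 1 was left out (adjusted p 0.0561 to 0.133). The death genes Bax and Bbc3 passed in neither fit (0.04 and 0.29 log2, adjusted p = 0.792 and 0.229 in limma without vehicle mouse 1). Of 20 tested genes of the cell cycle 1 rose, Top2a, the topoisomerase of dividing cells, from 0.519 to 0.816 to 1.24 to 4.06 scaled TPM (range of 5 mice each, 1.23 log2, adjusted p = 0.0434 in limma, 1.12 log2 and 0.0354 without vehicle mouse 1). That call was lost without any 1 control mouse or without vehicle mouse 3 or 5 (adjusted p 0.0718 to 0.125). Mki67, the standard marker of dividing cells, was at 0.251 to 0.477 in control and 0.472 to 1.98 in vehicle mice (adjusted p = 0.346).

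Among falling genes the myelin list is known best, with 19 of 27 tested members lower with all mice and 24 without vehicle mouse 1 (median -1.93 and -1.95 log2), and Mbp had 2380.3, 1965, 1592, 2355 and 1847 scaled TPM in control and 679, 365, 469, 573 and 188 in vehicle mice. The 15 largest falls outside the classic lists included several genes known from oligodendrocytes. They were the laminin receptor subunit Itgb4, the secreted protease Klk6, the proline-rich Prr18, the transmembrane genes Tmem125 and Tmem63a, the latter a mechanosensitive channel, the proteoglycan-cutting protease Adamts4 and its relative Adamtsl4, and the glycosyltransferase Galnt6. With them fell S1pr5, a sphingosine 1-phosphate receptor of oligodendrocytes, the septin-binding Anln of the myelin sheath, the tetraspanin Tspan2, the carbonic anhydrase Car14, the semaphorin receptor Plxnb3, Prr5l, which binds mTORC2, and Ttyh2 of the tweety family of membrane proteins. Their log2 fold changes lay between -2.02 (Itgb4) and -1.29 (Ttyh2), and each of the 15 stayed called in all 10 fits that left out 1 mouse.

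Itgb4 (ENSMUSG00000020758, GRCm38 chromosome 11, 115974709 to 116008412) had 8.89, 7.27, 6.26, 8.87 and 6.55 scaled TPM in control and 1.30, 1.12, 1.97, 2.11 and 1.08 in vehicle mice, a 4.06-fold fall (adjusted p = 3.56e-04 in limma, 3.97-fold and 2.27e-04 without vehicle mouse 1). Prr18 had 35.4, 28.2, 25.5, 35.2 and 27.9 in control and 8.13, 7.50, 8.35, 9.73 and 4.58 in vehicle mice (3.86-fold, adjusted p = 4.27e-04, 3.94-fold and 2.41e-04 without vehicle mouse 1). Every vehicle mouse lay below the lowest control in both, as the rule that named them required. Vehicle mouse 5 was the lowest of all for Itgb4 and Prr18, as it was for Mbp. Klk6, an oligodendrocyte protease that cleaves myelin protein, had 6.14, 3.89, 5.57, 8.20 and 4.22 in control and 2.40, 0.662, 1.21, 1.01 and 0.291 in vehicle mice. Vehicle mouse 1 was the highest vehicle mouse, and the fall was 4.03-fold with and 4.77-fold without it (adjusted p = 0.0111 and 6.38e-04 in limma). S1pr5 had 16.6, 14.9, 11.01, 17.3 and 11.9 in control and 6.52, 2.63, 3.54, 4.79 and 2.55 in vehicle mice (3.42-fold lower, adjusted p = 0.00373 in limma, 3.87-fold and 2.84e-04 without vehicle mouse 1).

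Il33 (ENSMUSG00000024810, GRCm38 chromosome 19, 29925114 to 29960718), an alarm cytokine that oligodendrocytes and some astrocytes hold in the nucleus, was the 1 chemokine or cytokine that fell. It had 46.2, 40.3, 28.98, 46.9 and 35.7 scaled TPM in control and 16.1, 17.6, 18.4, 17.7 and 13.5 in vehicle mice, with no overlap (log2 fold change -1.21, adjusted p = 0.00160 in limma, -1.20 log2 and 8.31e-04 without vehicle mouse 1). Enpp6, a choline phosphodiesterase that marks newly formed oligodendrocytes, fell from 3.99 ± 0.559 to 1.79 ± 0.209 scaled TPM (1.96-fold, adjusted p = 0.00201 in limma, 2.01-fold and 8.90e-04 without vehicle mouse 1), the 1 called gene of 16 in the progenitor list with all mice. Without vehicle mouse 1 the progenitor list also had Olig1, the lineage factor, lower (-0.41 log2, adjusted p = 0.0379) and Sox6 higher (0.51, adjusted p = 0.00746 in limma). Of 20 genes of the node of Ranvier and paranode 2 fell, Mag and Cntn2, both membrane proteins of the contact between glia and axon. Cntn2, a contactin also made by neurons, had 51.6, 46.6, 41.6, 50.7 and 46.8 in control and 18.04, 26.4, 30.6, 30.8 and 22.1 in vehicle mice (log2 fold change -0.90, adjusted p = 0.0113 in limma, -0.79 log2 and 0.00122 without vehicle mouse 1).

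**Figure D4:**
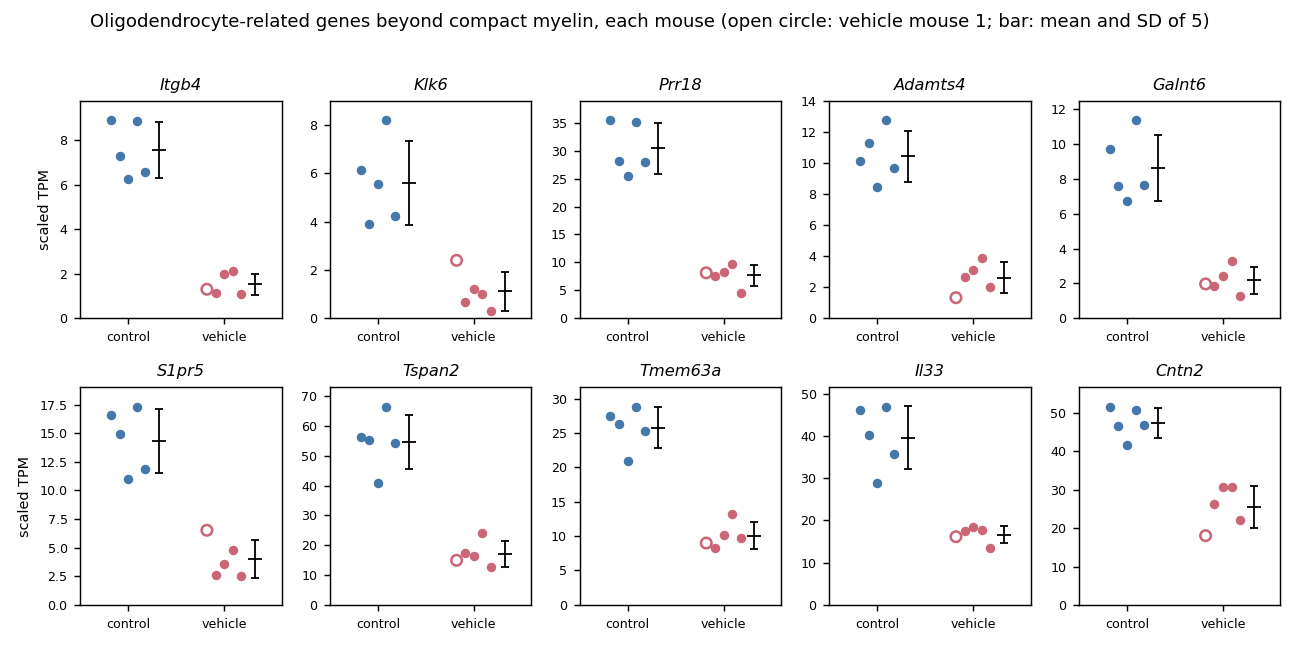
Scaled TPM of genes that fell and lie outside the compact myelin set, in each of 5 control (blue) and 5 vehicle mice (red, open circle for vehicle mouse 1), with mean and SD of the 5 as a bar. All vehicle mice lie below all control mice in every panel, and vehicle mouse 1 is the highest vehicle mouse for Klk6 and S1pr5. All genes shown except Il33 and Cntn2 met a naming rule that required no overlap.

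Among long non-coding genes the largest fall was that of Gm21984 (ENSMUSG00000095334, GRCm38 chromosome 7, 126942144 to 126952873, plus strand). It had 27.1, 23.6, 20.3, 32.5 and 19.7 scaled TPM in control and 1.28, 2.02, 3.53, 4.57 and 0.930 in vehicle mice, 9.33-fold lower (adjusted p = 6.83e-04 in limma, 8.45-fold and 3.86e-04 without vehicle mouse 1). Its span from start to end overlaps those of Kctd13 and Sez6l2 on the same strand and Asphd1 on the opposite one. Whether exons are shared was not looked up, so its reads may not be cleanly told from theirs. Whether quantification used strand is not given in the sources used here. Kctd13, a ubiquitin ligase adaptor, fell by 0.36 on the log2 scale with all mice (adjusted p = 0.0471 in limma), a call lost when any mouse other than vehicle mouse 1 was left out (0.0560 to 0.143), while Sez6l2 and Asphd1 stood at -0.15 and 0.06 (adjusted p = 0.822 and 0.945). Without vehicle mouse 1 all 3 fell, by 0.38, 0.31 and 0.27 on the log2 scale (adjusted p = 0.00526, 0.00207 and 0.0379), so the sign of Asphd1 turned with that mouse. 1700047M11Rik fell 3.56-fold, and Gm33594, Gm42756 and Gm19500 fell from between 0.980 to 2.73, 1.17 to 2.90 and 1.50 to 2.19 scaled TPM in control mice to 0 to 0.142, 0.0861 to 0.502 and 0.0419 to 0.366 in vehicle mice. All 5 stayed called when any 1 mouse was left out. Among non-coding genes that rose, 2900052N01Rik went from 22.2 to 35.5 to 40.5 to 55.2 scaled TPM (1.76-fold, adjusted p = 0.0151 in limma, 1.78-fold and 0.00634 without vehicle mouse 1), a call lost without control mouse 1, 4 or 5 (adjusted p 0.0530 to 0.0572). Ifi30, a lysosomal thiol reductase of antigen-presenting cells that the annotation gives as a processed transcript, rose 2.55-fold (adjusted p = 0.00378, 2.38-fold and 0.00160 without vehicle mouse 1) and held in every such fit. AU020206 and Gm11274 rose by 1.09 and 1.05 log2 (adjusted p = 0.0426 and 0.0471 in limma), and by 1.12 and 1.14 without vehicle mouse 1 (0.0232 and 0.0153). The AU020206 call was lost without any control mouse or vehicle mouse 2 or 3 (0.0810 to 0.127), and that of Gm11274 without any mouse but vehicle mouse 1 (0.0675 to 0.129).

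Genes of cholesterol synthesis fell in part. Of 24 tested genes of cholesterol synthesis and its control 4 fell with all mice, Hmgcs1, Sqle, Dhcr7 and the sterol sensor Insig1, and 14 fell and 0 rose without vehicle mouse 1 (median -0.32 and -0.27 log2). Insig1 had 66.5, 65.7, 62.2, 72.8 and 66.5 scaled TPM in control and 45.4, 51.1, 54.1, 52.2 and 48.1 in vehicle mice. Dhcr7, which makes the last step to cholesterol, had 22.7, 25.8, 23.9, 25.6 and 23.2 in control and 13.6, 17.3, 19.3, 18.2 and 16.4 in vehicle mice. The groups did not overlap for these genes although the falls were small, 1.33-fold for Insig1 and 1.43-fold for Dhcr7 (adjusted p = 0.0226 and 0.0317 in limma), and 1.30-fold and 1.35-fold without vehicle mouse 1 (0.00257 and 0.00343). Hmgcs1 and Sqle, an early and a rate-limiting enzyme of the pathway, fell 1.34-fold and 1.29-fold (adjusted p = 0.0373 and 0.0281), and 1.33-fold and 1.28-fold without vehicle mouse 1 (0.00920 and 0.00522). None of these 4 calls held in every fit that left out 1 mouse. That of Insig1 was lost without control mouse 1, 2, 4 or 5 and equally without vehicle mouse 2 or 5 (0.0550 to 0.0779), that of Dhcr7 without any control mouse or vehicle mouse 2 or 5 (0.0705 to 0.102), and those of Hmgcs1 and Sqle without any control mouse or vehicle mouse 2, 4 or 5 (0.0578 to 0.119 and 0.0562 to 0.0978, adjusted p in limma).

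Cers2, the synthase of the very long ceramides that myelin uses, fell from 49.96 ± 7.37 to 30.7 ± 4.92 scaled TPM (1.62-fold, adjusted p = 0.0343 in limma). Vehicle mouse 1 had 22.02, below the 32.2 to 34.2 of the others, and without it the fall was 1.50-fold (adjusted p = 0.00477). The call was lost without any control mouse or vehicle mouse 2, 3 or 5 (adjusted p 0.0515 to 0.110). Plpp3, an astrocyte phosphatase that degrades extracellular sphingosine 1-phosphate and lysophosphatidate, went the other way with very little spread. It had 118, 118, 124, 113 and 118 scaled TPM in control and 147, 152, 152, 144 and 147 in vehicle mice (1.25-fold higher, adjusted p = 0.0281 in limma, and 9.00e-04 without vehicle mouse 1). Its call was lost when any mouse other than vehicle mouse 1 was left out (adjusted p 0.0508 to 0.102). S1pr1, the receptor that siponimod also binds, rose by 0.22 log2 without vehicle mouse 1 (adjusted p = 0.0395) and stood at 0.26 with it (adjusted p = 0.177 in limma). Plin2, a coat protein of lipid droplets, rose 1.95-fold (adjusted p = 0.0445, 1.76-fold and 0.0159 without vehicle mouse 1), a call lost without any control mouse or vehicle mouse 3 or 5 (adjusted p 0.0922 to 0.132). Abca1, the cholesterol exporter, rose without vehicle mouse 1 (1.01 log2, adjusted p = 0.00385, against 0.83 and 0.112 with it in limma).

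Of 19 tested chemokines and cytokines 7 rose in both fits, namely Ccl3, Ccl4, Ccl6, Ccl9, Ccl12, Cxcl10 and Cxcl16, and 1 fell, Il33 above (median 0.66 log2 with all mice and 0.58 without vehicle mouse 1). All 7 attract leukocytes, and none exceeded 2.42 scaled TPM in a control mouse. Ccl3 and Ccl4 were below the filter of 0.5 TPM in every control mouse, so they were tested only because all 5 vehicle mice passed it. Their separation is no separate support. Ccl3, made by activated microglia (ENSMUSG00000000982, GRCm38 chromosome 11, 83647844 to 83649355), had 0.339, 0.369, 0.162, 0 and 0.127 scaled TPM in control and 11.8, 5.02, 7.44, 1.86 and 18.7 in vehicle mice. The vehicle mice spanned a wide range, with vehicle mouse 5 the highest and vehicle mouse 4 the lowest, and the log2 fold change was 3.46 (95% interval 2.42 to 4.50, adjusted p = 0.00399 in limma, 3.28 log2 and 0.00276 without vehicle mouse 1). Cxcl10, an interferon-induced chemokine, had 0.214, 0.466, 0.307, 0.169 and 0.324 in control and 4.64, 3.78, 4.92, 1.52 and 6.28 in vehicle mice (2.47 log2, adjusted p = 0.00154 in limma, 2.42 log2 and 0.00111 without vehicle mouse 1). Ccl4 and Ccl6 rose by 3.22 and 2.73 log2 (adjusted p = 0.00260 and 0.00392), and by 2.90 and 2.46 without vehicle mouse 1 (6.03e-04 and 0.00108). Ccl3 and Ccl4 are close relatives, as are Ccl6 and Ccl9, and how reads shared between such genes were assigned is not given in the sources used here.

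Calls of Ccl3, Ccl4, Ccl6 and Cxcl10 held in all 10 fits that left out 1 mouse. Those of the others did not: Ccl9 was lost without control mouse 2, 4 or 5 and equally without vehicle mouse 2, 3 or 5 (adjusted p 0.0578 to 0.104 in limma), Ccl12 without any control mouse or vehicle mouse 3 or 5 (0.0522 to 0.0660), and Cxcl16 without any control mouse or vehicle mouse 2, 3 or 5 (0.0585 to 0.108). Ccl2, a monocyte attractant, was at 0.297 to 2.71 scaled TPM in vehicle mice and did not pass (adjusted p = 0.593). Of 17 interferon-stimulated genes 0 passed in either limma fit (8 in each at an unadjusted p under 0.05, median 0.44 and 0.34 log2). Of 14 antigen presentation genes 0 passed with all mice (9 unadjusted) and 2, H2-K1 and B2m, without vehicle mouse 1. Most markers of T and B cells and of neutrophils and monocytes were absent or below the filter: 3 of 12 and 2 of 11 were tested. Of these 0 were called in limma (1 and 0 unadjusted with all mice, 2 and 0 without vehicle mouse 1). The summed levels of those tested were 34.8 to 62.7 and 0.685 to 3.71 scaled TPM in vehicle mice, against 47.1 to 67.6 and 0.669 to 2.29 in control mice.

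Myeloid genes outside the classic lists rose as well. Of the chemokines above, Ccl6 is also in the classic list of disease-associated microglia and Cxcl10 in that of reactive astrocytes. Cd84, a homophilic receptor of immune cells, had 2.42, 1.45, 1.48, 1.79 and 1.46 scaled TPM in control and 6.55, 5.36, 6.75, 4.02 and 10.2 in vehicle mice (3.10-fold, adjusted p = 0.00352 in limma, 3.07-fold and 0.00235 without vehicle mouse 1). Mpeg1, the pore-forming perforin of phagocytes, had 9.66, 10.9, 10.4, 9.90 and 10.7 in control and 31.8, 24.05, 29.5, 19.4 and 56.2 in vehicle mice (2.83-fold, adjusted p = 0.00820, 2.80-fold and 0.00549 without vehicle mouse 1). Both showed the order of Ccl3, with vehicle mouse 5 highest and vehicle mouse 4 lowest. Slc15a3, a lysosomal transporter of histidine and peptides, rose 3.09-fold (adjusted p = 0.0146, 2.83-fold and 0.00909 without vehicle mouse 1), a call lost without control mouse 1 (adjusted p = 0.0539 in limma). Bcl2a1b, a survival protein with near-identical copies whose reads cannot be told apart here, rose from 0.550 to 1.74 to 3.70 to 23.8 scaled TPM (2.26 log2, adjusted p = 0.0333, 1.87 log2 and 0.00640 without vehicle mouse 1), a call lost without any control mouse or vehicle mouse 3 or 5 (0.0691 to 0.0968).

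Of the classic lists, 10 of 27 disease-associated microglial genes rose with all mice and 17 without vehicle mouse 1, and 3 and 6 of 12 tested complement genes. Of 30 lysosomal genes 1, the protease Ctsc, rose with all mice (0.85 log2, adjusted p = 0.0427 in limma, 0.79 log2 and 0.0299 without vehicle mouse 1) and 7 without vehicle mouse 1. The Ctsc call was lost without any control mouse or vehicle mouse 2, 3 or 5 (0.0628 to 0.129). Trem2, a receptor of microglia for lipids, is among those that turn on the 1 mouse. It had 14.6, 12.9, 12.9, 13.2 and 14.4 scaled TPM in control and 82.9, 24.1, 29.8, 20.4 and 47.5 in vehicle mice, with vehicle mouse 1 the highest and no overlap between the groups. The adjusted p in limma was 0.0764 with that mouse and 0.0107 without it. It also passed without vehicle mouse 4 but not without any other 1 mouse (0.0861 to 0.210). Tyrobp, the signalling partner of Trem2, Cyba, a subunit of the NADPH oxidase, Cd14, the coreceptor for endotoxin, and the factor Cebpd passed without vehicle mouse 1 and not with all 10 mice, by 1.15, 1.17, 1.34 and 1.23 log2 (adjusted p = 0.0113, 0.00563, 0.0245 and 0.0191 in limma).

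**Figure D5:**
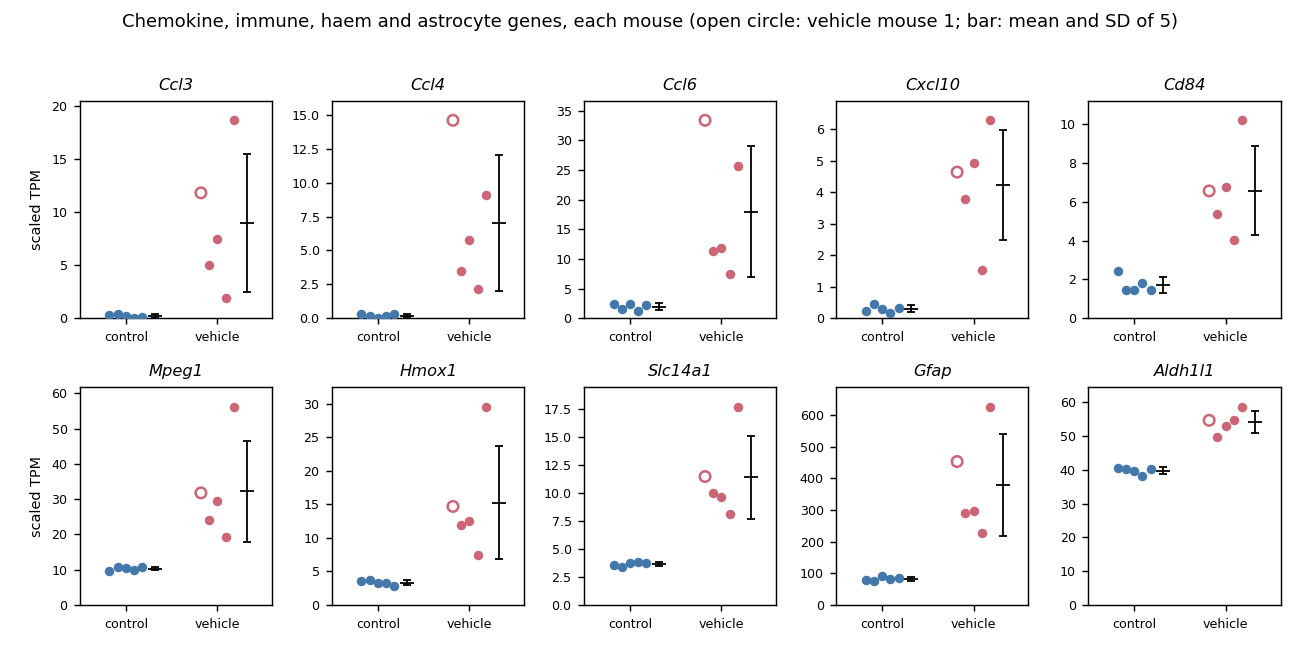
Scaled TPM of chemokine, myeloid, haem and astrocyte genes in each of 5 control (blue) and 5 vehicle mice (red, open circle for vehicle mouse 1), with mean and SD of the 5 as a bar. Vehicle mice lie above control mice in every panel. Ccl3, Ccl4, Cd84, Mpeg1, Hmox1 and Slc14a1 met a naming rule that required no overlap. Their spread is wide for Ccl3, Hmox1 and Gfap and narrow for Aldh1l1.

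Hmox1, the enzyme that opens haem and frees its iron, had 3.59, 3.75, 3.21, 3.26 and 2.86 scaled TPM in control and 14.7, 11.9, 12.6, 7.44 and 29.5 in vehicle mice (log2 fold change 1.90, adjusted p = 0.00694 in limma, 0.00509 without vehicle mouse 1). Vehicle mouse 5 was again the highest and vehicle mouse 4 the lowest of its group. Hfe, a membrane protein that tunes iron uptake, rose 1.98-fold (adjusted p = 0.0229, 2.03-fold and 0.0101 without vehicle mouse 1), a call lost without control mouse 1, 2, 3 or 5 and equally without vehicle mouse 2 or 3 (adjusted p 0.0554 to 0.0752 in limma). They were the 2 called of 14 tested genes of iron storage and transport (median 0.00 log2 with all mice and 0.09 without vehicle mouse 1). Red cell markers moved beside them: the 7 listed summed to 365.8 to 455.5 scaled TPM in control mice, 450.6 to 688.9 in vehicle mice 2 to 5 and 1189.6 in vehicle mouse 1. Of these, the haemoglobin gene Hbb-bs, which shares reads with close copies, was at 45.9, 43.8, 4.83, 29.03 and 51.2 in control and 272, 56.6, 72.2, 65.2 and 168 in vehicle mice. No red cell marker was called (0 of 7 in limma, 5 at an unadjusted p under 0.05 in either fit), and their part in the Hmox1 result was not tested.

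Genes known from astrocytes also rose. Gfap, the filament of reactive astrocytes, had 78.2, 73.9, 90.4, 82.01 and 85.9 scaled TPM in control and 453, 292, 297, 228 and 626 in vehicle mice, a 4.31-fold rise (adjusted p = 0.00134 in limma, 4.05-fold and 6.84e-04 without vehicle mouse 1). Slc14a1, the urea transporter of astrocytes and red cells, had 3.59, 3.36, 3.74, 3.87 and 3.70 in control and 11.5, 10.04, 9.61, 8.12 and 17.7 in vehicle mice (2.77-fold, adjusted p = 0.00172, 2.74-fold and 0.00111 without vehicle mouse 1). Both had vehicle mouse 5 highest and vehicle mouse 4 lowest. Serpina3n, a secreted protease inhibitor, rose 3.47-fold (adjusted p = 0.0203, 3.12-fold and 0.0113 without vehicle mouse 1), a call lost without control mouse 1, 2, 3 or 4 and equally without vehicle mouse 3 (adjusted p 0.0504 to 0.0704 in limma).

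Aldh1l1, the folate enzyme that marks astrocytes in general, rose by a small amount with almost no spread. It had 40.6, 40.1, 39.6, 38.2 and 40.4 scaled TPM in control and 54.7, 49.9, 53.1, 54.9 and 58.6 in vehicle mice (1.36-fold, adjusted p = 0.00659 in limma, 1.35-fold and 8.11e-04 without vehicle mouse 1). It was the 1 called of 15 homeostatic astrocyte genes with all mice. Without vehicle mouse 1, 6 rose and 0 fell, adding the glutamate transporter Slc1a3, the gap junction gene Gjb6, the bicarbonate transporter Slc4a4, the glycolytic Aldoc and Ndrg2, by 0.30 to 0.41 log2. Etnppl, an astrocyte enzyme that degrades phosphoethanolamine, rose 2.39-fold without vehicle mouse 1 (adjusted p = 0.00498), while with it the adjusted p was 0.0610 in limma. That mouse had 10.4 scaled TPM, the other vehicle mice 13.9 to 26.4 and the controls 5.66 to 10.3.

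Among growth factors and matrix genes 3 of 22 tested growth factor genes rose. They were Igfbp3, a binding protein of insulin-like growth factors, with 5.53, 4.81, 7.14, 5.45 and 5.16 scaled TPM in control and 14.3, 9.80, 10.7, 10.4 and 13.1 in vehicle mice (1.98-fold, adjusted p = 0.00392 in limma, 1.88-fold and 0.00144 without vehicle mouse 1), the astrocyte cytokine Cntf (1.69-fold, adjusted p = 0.0317, 1.70-fold and 0.0218 without vehicle mouse 1) and Pros1, a ligand of the TAM receptors that clear dead cells (1.79-fold, adjusted p = 0.0244, 1.75-fold and 0.0143 without vehicle mouse 1). Igfbp3 held when any 1 mouse was left out. Cntf was lost without control mouse 1, 2, 3 or 4 and equally without vehicle mouse 2, 3 or 5 (adjusted p 0.0711 to 0.0992 in limma) and Pros1 without any control mouse (0.0590 to 0.0811). Tgif1, a repressor of TGF-beta signalling, rose 2.32-fold (adjusted p = 0.0111 in limma, 2.32-fold and 0.00745 without vehicle mouse 1), the 1 called of 18 genes of that pathway with all mice, and the receptors Tgfbr1 and Tgfbr2 joined it without vehicle mouse 1 (0.60 and 0.41 log2). Hk2, the inducible hexokinase, rose 1.79-fold (adjusted p = 0.0471 in limma, 1.64-fold and 0.0251 without vehicle mouse 1), lost without any control mouse or vehicle mouse 2, 3 or 5 (adjusted p 0.0578 to 0.134).

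No listed marker of neuron types was called. Over all 17788 tested genes 1.32% passed with all mice and 3.1% without vehicle mouse 1, so 0 calls in lists this short is near that share. At an unadjusted p under 0.05 lay 1471 and 2510 of all tested genes. Of 16 markers of neocortical excitatory neurons and of 12 of inhibitory neurons 0 passed in either limma fit. Their medians were -0.13 and 0.06 log2 with all mice (0 and 0 at an unadjusted p under 0.05). Without vehicle mouse 1 they were -0.13 and -0.05 (3 and 1 unadjusted), so the sign for inhibitory neurons turned with that mouse. Markers of striatum, thalamus and hippocampus, tissue that borders the dissected regions, also had 0 calls, of 9, 8 and 6 tested (0 unadjusted in each fit). Of 18 immediate early genes 0 passed in limma (2 and 1 unadjusted, median -0.09 without vehicle mouse 1), and Fos was at 22.6 to 69.5 scaled TPM in control and 30.4 to 53.2 in vehicle mice. Of 15 late activity-regulated genes, which encode neuropeptides and synaptic proteins, 0 passed in limma (1 and 7 unadjusted), although all 15 had a negative log2 fold change in both fits (median -0.17 with all mice and -0.21 without vehicle mouse 1). Nptx2, a pentraxin released at excitatory synapses, was at 35.2, 39.5, 42.2, 32.1 and 38.2 in control and 33.4, 31.4, 30.9, 33.4 and 26.7 in vehicle mice (-0.28 log2, adjusted p = 0.127 without vehicle mouse 1). Of 18 clock genes 0 passed in limma with all mice (7 unadjusted) and 3 rose without vehicle mouse 1, Nr1d2, Dbp and Tef, by 0.27, 0.36 and 0.17 log2 (adjusted p = 0.0100, 0.00561 and 0.0386 in limma). The hour at which tissue was taken is not given in the labels.

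The genes that passed only without vehicle mouse 1 also included falls. Pdlim2, a scaffold and ubiquitin ligase, had 30.6, 20.04, 16.7, 22.9 and 21.4 scaled TPM in control mice, 9.10, 7.74, 9.50 and 7.91 in vehicle mice 2 to 5 and 19.8 in vehicle mouse 1 (2.48-fold lower without that mouse and 2.11-fold with it, adjusted p = 6.03e-04 and 0.0702 in limma). Gjb1, the connexin of oligodendrocytes, fell 2.35-fold (adjusted p = 0.00323). Among very short transcripts, the mitochondrial tRNA genes mt-Ts1, mt-Te and mt-Tm fell by 2.01, 1.98 and 1.75 on the log2 scale without that mouse (adjusted p = 0.00224, 0.0356 and 0.00909 in limma). With all mice mt-Ts1, mt-Te and mt-Tm stood at -1.19, -1.59 and -1.46 log2 (adjusted p = 0.822, 0.316 and 0.130). Mt-Ts1 had 464, 589, 454, 300.2 and 486 in control mice, 80.5, 117, 209 and 76.7 in vehicle mice 2 to 5 and 1949 in vehicle mouse 1. In siponimod mice 1 to 5 mt-Ts1 was at 549, 241, 649, 130 and 170 scaled TPM, overlapping the control mice. The 13 listed mitochondrial genes that encode protein had 0 calls in limma (0 unadjusted in either fit, median 0.01 log2 without vehicle mouse 1).

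Siponimod mice ate the same diet, and the vehicle mice are the group they share with the comparison above. In the fit over all 15 mice 0 of 17374 genes passed for siponimod against vehicle in limma (percent called 0), with 786 (4.52%) at an unadjusted p under 0.05. Atf5 had 105, 104, 100.2, 127 and 117 scaled TPM in siponimod mice 1 to 5 and Trib3 8.46, 7.29, 7.24, 5.92 and 9.75. The difference from vehicle mice was -0.05 log2 for Atf5 (95% interval -0.29 to 0.19) and 0.21 for Trib3 (-0.10 to 0.51). For Ccl3, at 6.79, 5.96, 1.54, 1.91 and 2.81 in siponimod mice, it was -1.04 (-2.06 to -0.01), and it did not pass after adjustment. The authors' deposited table, whose test is not given in the sources used here, has 1324 of the tested genes past its adjusted p of 0.05 for vehicle against control (7.44%), and it holds 233 of the 234 genes called in both fits here.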

How the data were processed

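Of 15 mice sequenced, 5 control and 5 vehicle mice are compared here. Per the labels' protocols a stranded total RNA kit with ribosomal RNA depletion was used, whereas the file header names a 3 prime mRNA analysis, and which holds was not settled. The submitters' processing notes name Salmon 1.4.0, STAR 2.6.1d, Trim Galore 0.6.6, bcl2fastq and the mm10 build. In which order the tools ran, and with what annotation or strand setting, is not given in the sources used here. Levels of overlapping genes are uncertain.

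The authors deposited TPM per mouse, and beside them their own comparison: log2 fold changes, standard errors, a statistic (a score), raw and adjusted p-values, per the file headers. Mean levels (a signal, per the file headers) were deposited too and were not used. TPM of a library summed to 996148 to 997069, and no reads or depths follow from them. Columns of values that belong to no labelled mouse numbered 0.

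Each library was scaled to a common median over the tested genes. Values of log2(scaled TPM + 0.5) of 5 against 5 mice were tested in limma 3.58.1 (R 4.3.3) with a mean-variance trend and no covariate, and again without vehicle mouse 1 on the same genes and scaling factors. Benjamini-Hochberg adjustment ran over all 17788 tested genes at 0.05, and every adjusted p is from limma. Fold changes are 2 to the power of the log2 change of scaled TPM + 0.5, which understates the change of genes with low values, and their 95% intervals are limma's and not adjusted for the number of genes. Shares per library were compared with two-sided exact permutation tests, whose smallest p is 0.00794 for 5 against 5 mice. Tested on simulated data of 17788 genes, the fit with all 10 mice found 69% of log2 changes of 1 and 25% of changes of 0.5, with 5 false calls, and without vehicle mouse 1 85% and 44%, with 8 false calls. The simulated noise was normal and independent between genes, with a wider spread for vehicle mouse 1 but without its shift by transcript length. These figures are therefore not error rates of the real comparison.

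The members and the 51 gene lists (926 entries, 902 matched, 2 of them by gene ID or synonym) were chosen with earlier results of these data known, so lists are described by counts and medians and not tested. Named genes are the 15 largest rises and 15 largest falls outside the classic lists among genes called in both fits, with a mean of at least 5 scaled TPM in 1 group, no overlap of groups and no predicted genes. To these come up to 3 called members of each list with the largest change, the 5 largest rises and falls called without vehicle mouse 1 but not with it, the 5 largest rises and falls among long non-coding genes, and Bc1, Mbp, Gfap and Trem2. Other genes named, mostly list members that passed in 1 fit or that did not pass, were chosen after their values were seen. Genes were located on GENCODE M21 (GRCm38), which matched 21286 of 21288 IDs. Tables and plots were made with matplotlib 3.10.9, scipy 1.17.1, numpy 2.4.6 and pandas 2.3.3 under Python 3.11.15. Alternatives were other scalings, pseudocounts of 0.1 and 1, filters, array weights, a transcript length correction, all 15 mice in 1 model, the mouse number as a block and leaving out each mouse.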

Additional observations from a re-analysis of the deposited data

Results flagged for a closer look

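Within each group of 5 mice, the highest and the lowest value of every named gene and library measure were checked for a gap to the next value of more than 0.71 of the group's range. Of 188 groups checked, 19 showed one, 10 of them in vehicle mouse 1. Chance gives such a gap in about 1 in 20 groups.

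In vehicle mouse 1 Bc1 took 35.25% of TPM, the median gene had 5.499 TPM and Bc1 had 727461 scaled TPM, against 77394 to 101765 in the other vehicle mice. That mouse also stood apart with Nupr1 at 127.3 scaled TPM, Eif4ebp1 at 27.47, the myelin gene Ppp1r14a at 12.37, mt-Ts1 at 1949, mt-Tm at 51.03 and Pdlim2 at 19.8, each above the other vehicle mice, and with Cers2 at 22.02, below them. Their values with and without the mouse stand in the results above, except Ppp1r14a, which fell 6.48-fold with it and 8.69-fold without it (adjusted p = 0.00820 and 1.76e-05 in limma).

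Vehicle mouse 5 stood above its group with Atf3 at 11.24 scaled TPM, the complement receptor C3ar1 at 5.517, Hfe at 7.281 and the non-coding AU020206 at 8.619. Among control mice, mouse 4 was high with Car14 at 18.15, Gm33594 at 2.735 and Gm19500 at 2.19, mouse 5 with Serpina3n at 11.35, and mouse 1 with Aen at 16.39 scaled TPM. The direction of each of these 9 genes was the same in every fit that left out 1 mouse. All 9 were chosen among genes called with the same sign in both fits, which favours this.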

How the results depend on the processing

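The count of called genes (234, 121 higher and 113 lower) ranged from 120 to 551 when 1 mouse was left out (47 to 286 higher, 72 to 265 lower). It was highest without vehicle mouse 1, and without control mice 1 to 5 it was 120, 130, 149, 120 and 121, without vehicle mouse 3 150 and without vehicle mouse 5 155. Of the 234 genes 110 (40 higher, 70 lower) stayed called in all 10 such fits. Unscaled TPM gave 150 calls (54 higher), and 534 (230 higher, 304 lower) without vehicle mouse 1. Genes at or above the median level gave 76 (29 and 47), array weights, which gave vehicle mouse 1 a weight of 0.043, gave 612 (317 and 295), and all 15 mice in 1 model gave 416 (232 and 184). A transcript length correction without vehicle mouse 1 gave 540 (281 and 259). Bc1 taken out, both pseudocounts, no filter and the length correction alone left the counts within 1.5 times (203 to 260). The mouse numbers are shared between groups but mark no shared litter or batch in the labels, and same-numbered mice deviated together with correlations of -0.02 to 0.22. A fit with the number as a replicate block gave 130 calls (49 higher), and 283 in place of 551 without vehicle mouse 1. The mitochondrial share differed by -0.879 percentage points with all mice and by 0.0854 without vehicle mouse 1 (exact permutation p = 0.556 and 0.905). Siponimod against vehicle gave 0 calls in the fit planned and in every alternative run, the alternatives chosen after the data were seen. None of the 91 genes named by rule changed direction in any alternative run that held them. Most were chosen because both fits called them with the same sign, so a stable direction was largely built in. Asphd1, not named by rule, did change sign without vehicle mouse 1. TPM keep no depth, so no counting error could be given for low genes such as Ccl3 or Gdf15. The cause of each change in count was not tested.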
